A study of Mus musculus with 4 samples.

Results

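The genes described here are 10 members of the epidermal growth factor (EGF) family: the ligand genes Nrg1, Nrg4, Hbegf, Areg, Ereg and Tgfa and the ErbB receptor genes Egfr, Erbb2, Erbb3 and Erbb4. They were chosen by symbol, with the expression difference between the genotypes below known, since Nrg1 was among the large decreases. The table holds 18276 genes, and 6 of the 10 have a row (Nrg1, Nrg4, Hbegf, Areg, Egfr and Erbb3). Ereg, Tgfa, Erbb2 and Erbb4 have no row in the table used here and were not analysed. Poly(A) RNA was sequenced from mouse osteoclast progenitors, which were CD115-positive bone marrow cells, negative for B220, CD3 and Mac-1, sorted without culture. The donors were Ptip flox/flox Mx-1Cre mice (Ptip_KO, 2 libraries) and WT Mx-1Cre mice (WT, 2 libraries), all of strain B6;129. Both genotypes carry Mx-1Cre, a Cre recombinase under an interferon-inducible promoter that is active in many cell types and not in osteoclast progenitors alone. PTIP, encoded by Paxip1, is a subunit of complexes that methylate histone H3.

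EGF family ligands are made as membrane-anchored precursors, and proteases of the ADAM family release their EGF-like domain. The released domain binds ErbB receptors, which pair with each other and signal through the Ras, ERK and PI3-kinase pathways. Neuregulin 1 (Nrg1) binds the products of Erbb3 and Erbb4, and neuregulin 4 (Nrg4) binds that of Erbb4. Amphiregulin (Areg), epiregulin (Ereg), transforming growth factor alpha (Tgfa) and heparin-binding EGF (Hbegf) bind the EGF receptor (Egfr), and heparin-binding EGF and epiregulin also bind ErbB4. ErbB3 has a kinase domain with little activity of its own and depends on a partner, usually ErbB2, which has no known ligand. In bone, EGF receptor ligands act on osteoblast-lineage cells, and amphiregulin is made by several kinds of immune cell.

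The promoters of Nrg4 and Egfr, which were lower in both Ptip_KO libraries, and of Areg, whose groups overlapped, are shown so that the sequences of both kinds of member can be compared. RefSeq (GRCm38.p6) gave a window of 300 bases, 250 before the start and 50 after it, for 6 of the 10 members, and for none of Nrg1, Hbegf, Ereg and Erbb3. A TATA box was searched for as TATAAA. The GC box bound by Sp factors was searched for as GGGCGG. An AP-1 site was searched for as TGANTCA, and the cyclic AMP response element (CRE) as TGACGTCA. The last motif was an ETS core, written GAGGAA. Both strands were read, and no matches overlapped. Capitals mark each match.
Nrg4, chr9:55283576-55283875, minus strand: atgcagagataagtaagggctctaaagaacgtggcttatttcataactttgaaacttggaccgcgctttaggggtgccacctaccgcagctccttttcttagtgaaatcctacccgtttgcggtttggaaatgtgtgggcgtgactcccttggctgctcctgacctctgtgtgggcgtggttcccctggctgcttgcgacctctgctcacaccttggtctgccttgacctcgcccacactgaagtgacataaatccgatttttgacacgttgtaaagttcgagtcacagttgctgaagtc
Egfr, chr11:16751953-16752252, plus strand: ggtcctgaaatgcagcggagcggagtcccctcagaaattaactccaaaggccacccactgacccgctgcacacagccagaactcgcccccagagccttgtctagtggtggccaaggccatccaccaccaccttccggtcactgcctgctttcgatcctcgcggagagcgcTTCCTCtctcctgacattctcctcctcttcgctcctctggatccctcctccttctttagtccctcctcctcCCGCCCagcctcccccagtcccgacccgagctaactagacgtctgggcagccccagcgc
Areg, chr5:91139349-91139648, plus strand: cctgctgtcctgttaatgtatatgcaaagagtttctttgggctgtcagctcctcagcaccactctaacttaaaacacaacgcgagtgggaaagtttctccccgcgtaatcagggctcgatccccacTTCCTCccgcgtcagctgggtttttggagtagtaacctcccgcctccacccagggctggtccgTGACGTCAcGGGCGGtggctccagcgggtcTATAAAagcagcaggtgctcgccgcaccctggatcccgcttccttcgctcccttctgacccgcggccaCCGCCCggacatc
The Nrg4 window starts at an internal start, 43.2 kb inside the gene, and held 0 matches, with a GC content of 51%. The Egfr window, of 62.3% GC, held 1 GC box and 1 ETS core. The Areg window held a CRE beginning 61 bases before the start, a TATA box 31 bases before it, 2 GC boxes and 1 ETS core. Over 32851 RefSeq promoter windows, a TATA box was in 13.6%, a GC box in 35.7%, an AP-1 site in 7.81%, a CRE in 1.79% and an ETS core in 28.3%. These are matches of letters and say nothing of binding in these cells.

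The 4 libraries held 67592972 to 77773478 reads, so that 1 read was worth 0.0127 to 0.0143 CPM, the normalised read count scaled to the library size that edgeR calls effective. Paxip1 was at 5.10 and 3.73 CPM in the Ptip_KO libraries, against 106 and 103 CPM in the WT libraries. Of 8 listed markers of the sorted progenitors, 3 were lower in both Ptip_KO libraries and 2 were higher in both. Of all genes tested, 27.3% were lower in both Ptip_KO libraries, and for 55.1% the groups did not overlap. The median log2 fold change of the 8 markers was −0.05. Kit and Flt3, genes of progenitor receptors, were among the lower ones (14.4 and 16.1 CPM of Kit in Ptip_KO, against 49.5 and 73.1 CPM in WT). Cd34 went the other way, with 288 and 272 CPM in Ptip_KO, against 192 and 246 CPM in WT. Csf1r, which encodes CD115, was at 782 to 825 CPM in Ptip_KO, against 606 to 677 CPM in WT, and Tnfrsf11a, the gene of the osteoclast receptor RANK, was at 4.86 to 8.19 CPM over all libraries. Itgam, which encodes the alpha chain of Mac-1, was at 35.1 to 42.1 CPM although Mac-1-positive cells were gated out, and Cd3e, Cd3d and Cd3g were each under 0.42 CPM. WT replicate 2 stood apart in sex-linked transcripts, with 298 CPM of Xist against 0.0428 to 0.0814 CPM in the other libraries, and with 0.101 CPM of Ddx3y against 69.1 to 89.6 CPM. The labels number the 2 samples of a group without saying that they came from separate animals, so the tests measure the spread between these samples.

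Nrg1 had the largest difference between genotypes among the members on log2(CPM + 1), although the ratio of Egfr, from few reads, was lower. It had 9.77 and 11.6 CPM in the Ptip_KO libraries (744 and 813 reads), against 52.9 and 50.7 CPM in the WT libraries (3900 and 3999 reads). All WT values lay above all Ptip_KO values, and the gap between the groups was far wider than the gap within either. The means were 10.7 ± 1.29 CPM in Ptip_KO, against 51.8 ± 1.56 CPM in WT (SD, n = 2 each), 4.85-fold lower in Ptip_KO. The log2 fold change of Ptip_KO over WT was −2.18 (standard error 0.12), on log2(CPM + 1), which is used for log2 fold changes unless another setting is named. Of the 12357 genes tested, 43 had a log2 fold change as low or lower, Nrg1 included. Without WT replicate 2 the log2 fold change was −2.21. In bulk RNA, fewer cells that make a transcript and less of it per cell cannot be told apart.

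Nrg1 (ENSMUSG00000062991.7) lies on the minus strand of chromosome 8 at 31814551 to 32884029 (GRCm38, the assembly of mm10). The annotation gives it 18 transcripts with 15 different start positions spread over 1035 kb, and an exon of the lincRNA Gm26578 overlaps one of its exons on the opposite strand. The table has 1 value for the whole gene, so the neuregulin 1 isoforms, which begin at different starts, were not told apart. No transcript of another gene matched Nrg1 at 95% identity or more over at least 200 nucleotides and 50% of the shorter transcript, and the same search found none for the other 9 members.

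Nrg4 was at 1.76 and 1.27 CPM in Ptip_KO (134 and 89 reads), against 2.89 and 5.02 CPM in WT (213 and 396 reads). Both Ptip_KO values lay below both WT values, and WT replicate 2 was 1.74 times WT replicate 1. The means were 1.52 ± 0.346 CPM in Ptip_KO, against 3.96 ± 1.51 CPM in WT (SD, n = 2 each), 2.61-fold lower in Ptip_KO. On log2(CPM + 1) the log2 fold change was −0.95 (standard error 0.25). Without WT replicate 2 it was −0.64, so that this library carried part of the difference. Nrg4 (ENSMUSG00000032311.17) lies on chromosome 9 at 55220222 to 55326844, and an exon of Fbxo22, a gene of the opposite strand with 44.5 and 44.1 CPM in Ptip_KO, against 52.0 and 52.4 CPM in WT, overlaps one of its exons. Whether the counting used strand is not given in the sources used here, so reads of Fbxo22 could be among those of Nrg4.

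The other ligand genes with a row were low, under 1 CPM in every library. Hbegf had 9 and 21 reads in Ptip_KO, or 0.118 and 0.2997 CPM, against 41 and 68 reads in WT, or 0.556 and 0.862 CPM. All Hbegf values of Ptip_KO lay below those of WT, and the ratio of Ptip_KO to WT, from reads summed over each group, was 0.287 with an exact 95% interval of 0.185 to 0.434 that covers counting error only. Areg had 17 and 60 reads in Ptip_KO (0.223 and 0.856 CPM), against 23 and 33 reads in WT (0.312 and 0.418 CPM). The groups overlapped, since 1 Ptip_KO library was the lowest and the other the highest of all, and within Ptip_KO replicate 2 was 3.83 times replicate 1.

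Some other genes, named after their values were seen, were also higher in replicate 2 than in replicate 1 of Ptip_KO. Not all genes of the pathway lists below were: Fosl2 was at 174 and 176 CPM in Ptip_KO, and Dusp6 at 60.7 and 54.8 CPM. Egr1, an immediate early transcription factor gene, was at 8.03 CPM in replicate 1 and 20.1 CPM in replicate 2 of Ptip_KO, and at 8.22 and 5.87 CPM in WT. Jun was at 280 and 580 CPM in Ptip_KO, against 332 and 272 CPM in WT. Fos was at 614 and 997 CPM in Ptip_KO, and its replicate 2 value lay within its range in WT (659 to 1061 CPM). Junb was at 275 and 362 CPM in Ptip_KO, against 296 and 199 CPM in WT. Ier2 was at 139 and 184 CPM in Ptip_KO, against 141 and 117 CPM in WT. Between the WT libraries all of these genes were lower in replicate 2 than in replicate 1, while Areg was higher. Basophils and mast cells are known to make amphiregulin. The 9 listed markers of these cells, 7 of them with a row and Tpsb2 and Cma1 without one, summed to 62.5 and 148 CPM in Ptip_KO, against 193 CPM in WT replicate 2 and a value between the Ptip_KO sums in WT replicate 1, and 0 of 6 tested passed by limma, edgeR or DESeq2 or at an unadjusted p under 0.05. The part of either group of genes in the Areg values was not tested.

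Of the receptor genes, Erbb3 was measured well above the floor and was higher in both Ptip_KO libraries. It had 16.9 and 12.9 CPM in Ptip_KO (1288 and 901 reads), against 10.9 and 10.2 CPM in WT (803 and 806 reads). The groups did not overlap, but Ptip_KO replicate 2 was nearer to the WT libraries than to the other Ptip_KO library. The means were 14.9 ± 2.87 CPM in Ptip_KO, against 10.6 ± 0.476 CPM in WT (SD, n = 2 each), a ratio of 1.41 and a log2 fold change of 0.45 (standard error 0.15). Without Ptip_KO replicate 1 it was 0.26, and without Ptip_KO replicate 2 it was 0.63. Erbb3 (ENSMUSG00000018166.8) lies on chromosome 10 at 128567523 to 128589652, and no exon of another gene overlaps its exons.

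Egfr was almost silent. It had 2 reads in each Ptip_KO library, or 0.0263 and 0.0285 CPM, against 14 and 17 reads in WT, or 0.190 and 0.216 CPM. The Ptip_KO values were under the 0.0394 and 0.0428 CPM that 3 reads are worth in those libraries, the limit that a count of 0 allows. The ratio of Ptip_KO to WT from summed reads was 0.135, with an exact 95% interval of 0.0345 to 0.381 for counting error only. Egfr (ENSMUSG00000020122.16) lies on chromosome 11 at 16752203 to 16918158, Areg (ENSMUSG00000029378.5) on chromosome 5 at 91139599 to 91148432, and Hbegf (ENSMUSG00000024486.5) on chromosome 18 at 36504927 to 36515805.

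**Figure D1:**
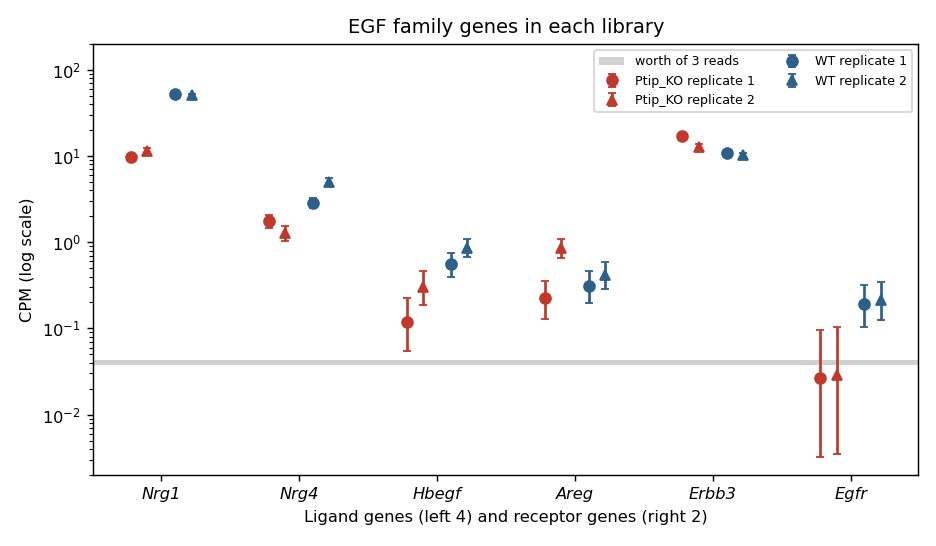
Levels of the 6 members with a row, in CPM on a log axis, by gene. Red points are the 2 Ptip_KO libraries and blue points the 2 WT libraries, bars are exact 95% Poisson intervals for counting error only, and the grey band is the worth of 3 reads; Nrg1, Nrg4, Hbegf and Egfr are lower in both Ptip_KO libraries, Erbb3 is higher in both, and Areg overlaps.

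Of the 6 members with a row, Nrg1, Nrg4 and Erbb3 passed the filter of at least 1 CPM in at least 2 libraries, all with at least 1 CPM in every library, while Hbegf, Areg and Egfr were under it. Among these 3 members, limma called 0 higher and 1 lower (Nrg1) at a Benjamini-Hochberg adjusted p under 0.05, against a background of 6.29% of all tested genes, 2.43% higher and 3.86% lower. At an unadjusted p under 0.05, 1 was higher and 2 were lower. Here and in the lists below, the share of all tested genes at that level was not counted. By edgeR 0 members were called higher and 1 lower, against 243 and 417 of all 12357 genes tested. By DESeq2 these were 0 and 2, against 780 and 1126. Of the 6 members with a row, 4 had both Ptip_KO libraries below both WT libraries, as had 25.2% of all genes of the table and 27.3% of the tested genes. The groups did not overlap for 5 of the 6, against 50.8% of all genes and 55.1% of the tested genes. The family was picked with the contrast of these libraries known, so its values describe these samples, and nothing is read from these counts.

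Scaled to the length of annotated exons, the order of the family differed between the genotypes. In Ptip_KO the members ran from Erbb3 (2.81 and 2.14 CPM per kb) through Nrg1 (0.944 and 1.12), Areg (0.184 and 0.705), Nrg4 (0.290 and 0.209) and Hbegf (0.0245 and 0.0620) to Egfr (0.00232 and 0.00252). In WT the order was Nrg1 (5.11 and 4.90 CPM per kb), Erbb3 (1.81 and 1.70), Nrg4 (0.476 and 0.827), Areg (0.257 and 0.344), Hbegf (0.115 and 0.178) and Egfr (0.0168 and 0.0190). Areg and Nrg4 overlapped in Ptip_KO, and all other neighbours in either order were separate in both libraries. Nrg1 was above Erbb3 in both WT libraries and below it in both Ptip_KO libraries. With the longest transcript of each gene as its length, Nrg1 (1.80 and 2.14 CPM per kb) and Erbb3 (2.81 and 2.14) overlapped in Ptip_KO, Nrg4 (1.38 and 2.40) and Erbb3 (1.81 and 1.70) overlapped in WT, and Nrg1 stayed above Erbb3 in WT.

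Nrg2, which encodes another neuregulin that binds ErbB3 and ErbB4 and was listed as a family ligand beside the members, had the highest length-scaled level in every library among the 8 EGF family genes with a row. It was at 70.7 and 70.1 CPM in Ptip_KO, against 45.1 and 53.2 CPM in WT. The Ptip_KO values lay above both WT values and the log2 fold change, 0.51 (standard error 0.11), missed the threshold (limma adjusted p = 0.0525; edgeR 0.0704; DESeq2 0.00292). Per kb of exon, Nrg1 had 0.0419 and 0.0502 times the level of Nrg2 in Ptip_KO and 0.356 and 0.289 times that level in WT. Egf, the gene of EGF itself, was at 1.54 and 1.53 CPM in Ptip_KO, against 0.950 and 1.29 CPM in WT (limma adjusted p = 0.440). Btc, Epgn and Nrg3 have no row in the table used here.

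**Figure D2:**
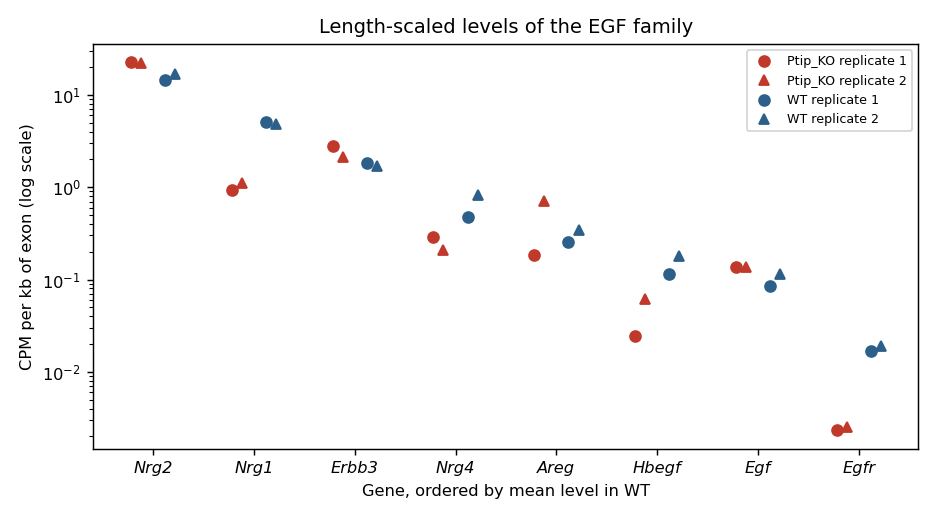
Length-scaled levels of the 6 members with Nrg2 and Egf, in CPM per kb of annotated exon on a log axis, ordered by the WT mean. Red points are Ptip_KO and blue points WT libraries; Nrg1 is above Erbb3 in WT and below it in Ptip_KO, and Nrg2 is the highest throughout.

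In the 6 lists of genes that process EGF family ligands or carry their signal, 95 of 108 genes were tested, 0 rose and 4 fell by limma, which is 4.21% lower beside 3.86% of all tested genes. At an unadjusted p under 0.05, 5 were higher and 17 lower. By edgeR 0 and 4 were called, against 243 and 417 of all 12357 genes tested. By DESeq2 3 and 16 were called, against 780 and 1126 of all genes. The median log2 fold change was −0.03, against 0.00320 over all tested genes. The lists were written with earlier results of these data known.

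Among the genes of ligand shedding, 1 of 12 tested fell and 0 rose (1 higher and 3 lower at an unadjusted p under 0.05; edgeR called 0 and 1, DESeq2 1 and 3), with a median log2 fold change of −0.09. The gene that fell was Adam19, whose protease is known to cleave neuregulins. It was at 5.79 and 3.60 CPM in Ptip_KO, against 57.4 and 41.5 CPM in WT, and the groups were far apart. Its log2 fold change was −3.16 (standard error 0.24, limma adjusted p = 0.00473). Exons of the antisense genes Gm16033 and Gm16034 overlap those of Adam19, so reads of these could be counted with it. Adam17 and Adam10, the main sheddases of the family, were at 125 to 141 and 147 to 156 CPM in Ptip_KO, against 115 to 137 and 147 to 159 CPM in WT. Adam8 and Rhbdf1 were named after their values were seen. Adam8 had the second lowest fold change of the list, with 16.3 and 7.84 CPM in Ptip_KO against 37.4 and 86.1 CPM in WT. Adam8 missed the threshold by limma (adjusted p = 0.0523) and edgeR (0.0739), and passed it by DESeq2 (0.0177). With the filter dropped, it passed by limma (0.0445) and edgeR (0.0414). Rhbdf1 went the other way, with 1.58 and 1.81 CPM in Ptip_KO against 0.678 and 0.456 CPM in WT. Rhbdf1 missed the threshold by limma (adjusted p = 0.0678) and edgeR (0.0651), and passed it by DESeq2 (0.0175) and by limma without a filter (0.0401).

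Of 5 tested partners of the ligands at the cell surface, 1 fell and 0 rose (1 higher and 3 lower at an unadjusted p under 0.05; edgeR 0 and 1, DESeq2 0 and 3), with a median of −0.45. Cd9, a tetraspanin that associates with membrane-anchored HB-EGF, was at 6.76 and 8.58 CPM in Ptip_KO against 21.6 and 28.7 CPM in WT, without overlap, with a log2 fold change of −1.59 (standard error 0.18, limma adjusted p = 0.0123). None of 22 tested genes of receptor turnover and inhibition passed by limma (0 higher and 4 lower at an unadjusted p under 0.05; edgeR called 0, DESeq2 3 lower), with a median of 0.02. In that list the phosphatase gene Ptprj was at 299 and 276 CPM in Ptip_KO, against 262 and 200 CPM in WT, and the endocytic adaptor gene Epn1 at 271 and 232 CPM in Ptip_KO, against 294 and 229 CPM in WT.

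Among signal adaptors and kinases, 0 of 35 tested were past the threshold by limma (1 higher and 4 lower at an unadjusted p under 0.05; edgeR called 0, DESeq2 1 higher and 4 lower), with a median of −0.03. The PI3-kinase subunit gene Pik3cd was at 522 and 510 CPM in Ptip_KO, against 541 and 454 CPM in WT, and the phospholipase gene Plcg2 at 451 and 420 CPM in Ptip_KO, against 582 and 454 CPM in WT. Of 19 tested feedback and target genes of the ERK pathway, 2 fell and 0 rose (1 higher and 3 lower at an unadjusted p under 0.05; edgeR 0 and 2, DESeq2 0 and 3), with a median of 0.05. Dusp5, a phosphatase that inactivates ERK and is induced by it, was at 2.73 and 3.73 CPM in Ptip_KO against 9.56 and 10.9 CPM in WT (log2 fold change −1.42, standard error 0.17, limma adjusted p = 0.0138). The cyclin D1 gene Ccnd1 was at 13.8 and 9.03 CPM in Ptip_KO against 31.1 and 23.7 CPM in WT (log2 fold change −1.21, standard error 0.22, limma adjusted p = 0.0408), and missed the threshold without Ptip_KO replicate 2 (limma adjusted p = 0.0609). Exons of genes on the opposite strand overlap those of Cd9, Dusp5 and Ccnd1. Dusp6, another ERK phosphatase gene of the list, was at 60.7 and 54.8 CPM in Ptip_KO, against 51.5 and 42.2 CPM in WT, and did not pass.

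**Figure D3:**
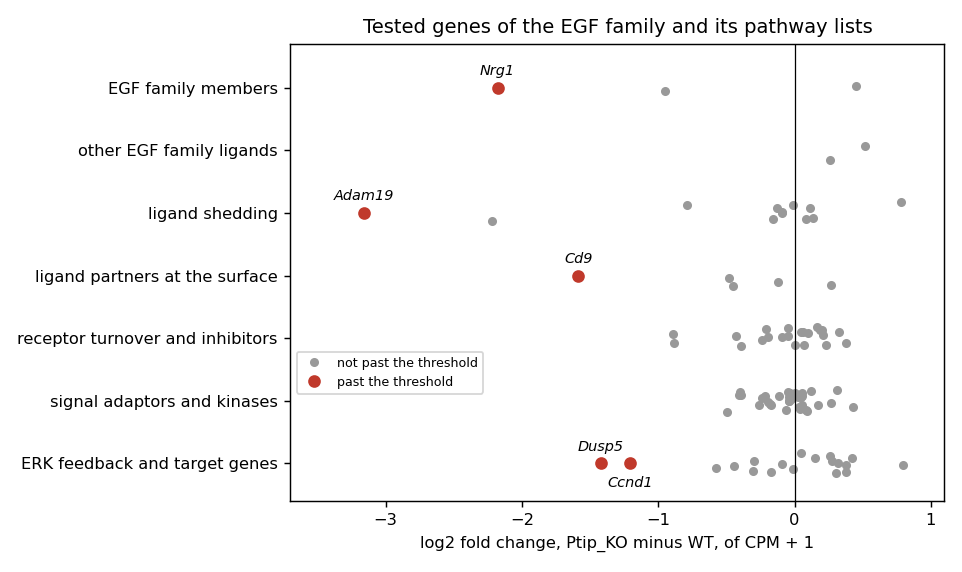
Log2 fold change of Ptip_KO over WT on log2(CPM + 1) for each tested gene of the family and of the 6 pathway lists, 1 point per gene, with red for genes past the limma threshold. Nrg1, Adam19, Cd9, Dusp5 and Ccnd1 are past it, all on the lower side, and most other points lie near 0.

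The 5 tested genes whose profile over the 4 libraries lay nearest to that of Nrg1, by Euclidean distance between log2(CPM + 1) values centred on each gene's mean, were Tbxas1, Icosl, Gpx3, P2ry2 and C1qa, at distances of 0.236 to 0.332. Tbxas1, the thromboxane synthase gene, was at 5.04 and 5.75 CPM in Ptip_KO against 25.6 and 31.0 CPM in WT. Icosl, the gene of a T cell costimulatory ligand, was at 9.31 and 9.85 CPM in Ptip_KO against 45.6 and 37.8 CPM in WT. Gpx3, which encodes a secreted glutathione peroxidase, was at 3.45 and 3.17 CPM in Ptip_KO against 16.9 and 16.9 CPM in WT. P2ry2, a nucleotide receptor gene, was at 1.73 and 1.73 CPM in Ptip_KO against 9.10 and 10.8 CPM in WT. C1qa, a complement gene of macrophages, was at 0.158 and 0.143 CPM in Ptip_KO against 3.19 and 3.79 CPM in WT. Its mean was 23.2-fold lower in Ptip_KO, against 4.85-fold for Nrg1. On reads, edgeR gave log2 fold changes of −4.52 for C1qa and −2.27 for Nrg1, where log2(CPM + 1) gave −1.96 and −2.18. C1qa was thus near Nrg1 with the added 1 CPM, which exceeds its Ptip_KO values, and not in the ratio of its levels.

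Markers of other cells also differed between the genotypes. Over all 12357 tested genes, limma called 2.43% higher and 3.86% lower. By edgeR 243 of them were higher and 417 lower, and by DESeq2 780 and 1126. Of 11 tested markers of macrophages and monocytes, 7 fell and 0 rose by limma (0 higher and 8 lower at an unadjusted p under 0.05; edgeR 0 and 7, DESeq2 0 and 8), and none of the 12 listed was at 0 in any library. Their median log2 fold change was −1.38. Their summed level was 934 to 1223 CPM in Ptip_KO, against 963 to 1490 CPM in WT, which overlap, but Ccr2 and Cd68 made up most of it. Without these 2 most abundant markers, a choice made after the values were seen, the other 10 summed to 39.6 and 47.4 CPM in Ptip_KO, against 166 and 143 CPM in WT, with no overlap. Adgre1, the F4/80 gene, was at 8.67 and 6.79 CPM in Ptip_KO against 90.5 and 51.7 CPM in WT. Of 7 tested dendritic cell markers, 4 fell and 0 rose (0 higher and 5 lower at an unadjusted p under 0.05; edgeR 0 and 4, DESeq2 0 and 5), with sums of 71.9 to 84.5 CPM in Ptip_KO, against 159 to 249 CPM in WT. Of 10 tested red cell markers, 7 fell and 0 rose (0 higher and 10 lower at an unadjusted p under 0.05; edgeR 0 and 4, DESeq2 0 and 9), with sums of 813 to 1037 CPM in Ptip_KO, against 1974 to 4508 CPM in WT. Of 7 Schwann and neural markers 4 have a row, and these summed to 3.35 and 3.47 CPM in Ptip_KO, against 5.90 and 4.83 CPM in WT. Of the 2 of them tested, 0 passed by limma, edgeR or DESeq2 and 1 was lower at an unadjusted p under 0.05. Epithelial markers, with Krt5 and Krt14 without a row, summed to 3.36 to 4.64 CPM in Ptip_KO, against 7.90 to 9.47 CPM in WT. Of 2 tested epithelial markers 1 fell by limma, edgeR and DESeq2 (2 lower at an unadjusted p under 0.05), the E-cadherin gene Cdh1, with 0.210 and 0.186 CPM in Ptip_KO against 2.41 and 1.99 CPM in WT. Of 10 tested neutrophil markers, 0 passed by limma or edgeR, 3 were lower by DESeq2 and 5 were lower at an unadjusted p under 0.05. Their median log2 fold change was −1.46, and 6 of 10 were lower in both Ptip_KO libraries, as were 27.3% of all tested genes. The sums of the neutrophil markers overlapped (9669 to 10273 CPM in Ptip_KO, against 8757 to 13147 CPM in WT), and Mpo and Elane made up most of them. Without these 2, left out by the same choice, the other 8 summed to 1100 and 838 CPM in Ptip_KO, against 1864 and 3647 CPM in WT, with no overlap. Every other list was also summed without its 2 most abundant markers. Those sums overlapped for basophils and mast cells, B cells, megakaryocytes and platelets, and endothelial cells. They also overlapped for sorted progenitors and for T, NK and innate lymphoid cells. In the remaining lists they were lower in both Ptip_KO libraries. Among B cell markers Cd79b rose by limma and DESeq2 but not by edgeR, and 2 of 8 were tested. Few markers of the other lists reached the filter: 3 of 10 for T, NK and innate lymphoid cells, 4 of 8 for megakaryocytes and platelets, 2 of 10 for stromal cells and osteoblasts and 1 of 7 for endothelial cells. None of those tested passed by limma, edgeR or DESeq2 or at an unadjusted p under 0.05. The part of these cells in the values of Nrg1, Nrg4, Hbegf, Egfr, Adam19 and Cd9 was not tested.

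**Figure D4:**
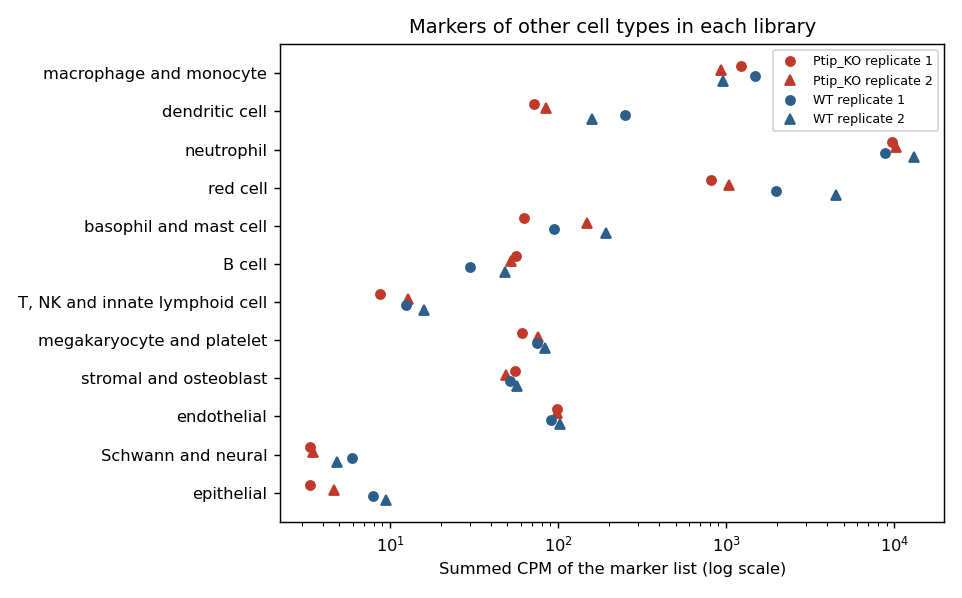
Summed CPM of the lists of markers of other cell types, on a log axis, in the 2 Ptip_KO (red) and 2 WT (blue) libraries. Dendritic, red cell, Schwann and neural, and epithelial sums are lower in both Ptip_KO libraries, while those of macrophages (mostly Ccr2 and Cd68), of neutrophils (mostly Mpo and Elane) and of basophils and mast cells overlap.

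Across 15 other settings the log2 fold change of Nrg1 lay between −2.29 and −1.86, and over 14 that gave a value for Nrg4 between −1.39 and −0.45. That of Erbb3 lay between 0.26 and 0.63 over 15 settings. None of these 3 members turned its direction under any of them. Some settings change the scale, with other pseudocounts or with edgeR or DESeq2 on reads. The −1.86 of Nrg1 and the −0.45 of Nrg4 came with a pseudocount of 5, and the −1.39 of Nrg4 came from DESeq2.

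**Figure D5:**
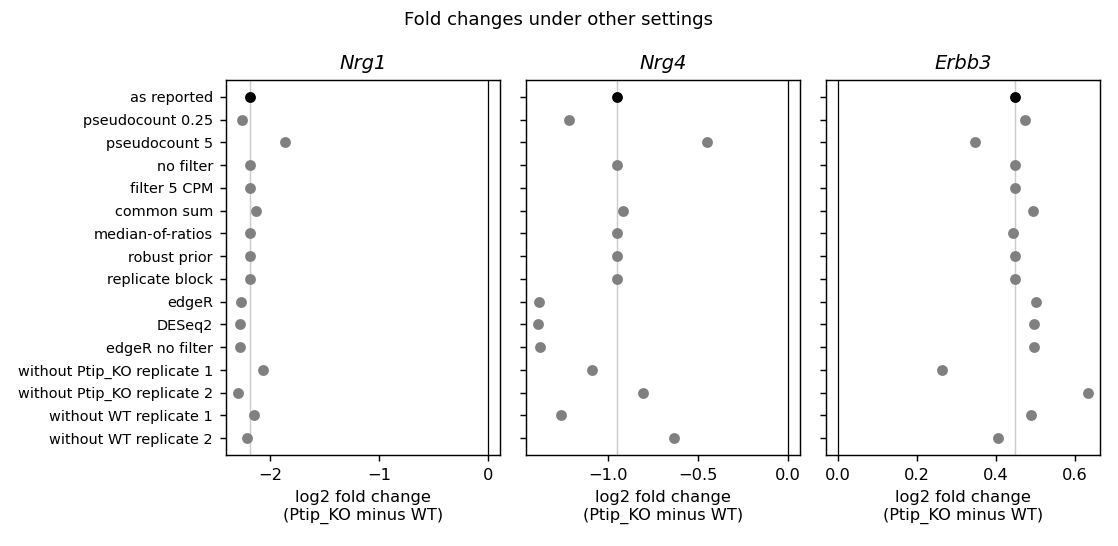
Log2 fold change of Ptip_KO over WT for Nrg1, Nrg4 and Erbb3 as reported (black) and under each other setting (grey), with 0 as a vertical line. Nrg1 stays between −2.29 and −1.86, and each gene keeps its side of 0.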

How the data were processed

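Per the labels' protocols, poly(A) RNA went into TruSeq Stranded mRNA libraries. TopHat2 2.0.10, HTSeq 0.6.0, edgeR 3.8.6 and the build mm10 are named in the submitters' processing notes, with no role given. The deposited values are a signal that the authors, in the name they gave the table, call CPM on the effective library size. Its steps gave back whole reads (100% of the values of 18276 genes, within 0.01 read), 67592972 to 77773478 per library. No gene had fewer than 10 reads in the library where it was highest. Intervals and floors (3 reads) cover counting error only.

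The 12357 genes that reached 1 CPM in 2 or more libraries were fitted on log2(CPM + 1), a scale that understates changes of low genes, by limma 3.58.1 (R 4.3.3). The variance prior was trended, genotype was the sole term, and two-sided p-values were adjusted by Benjamini-Hochberg, with calls under 0.05. Exact permutation of 2 against 2 libraries cannot give a two-sided p under 0.333. The recovered reads were tested with edgeR 4.0.16 (quasi-likelihood), which called 243 genes higher and 417 lower, and DESeq2 1.42.0. Other settings (pseudocount, filter, scaling, variance prior, replicate block, each library left out) were tried too. Counts were simulated on these libraries, with a known change in 200 of the 12357 genes. The limma fit found 92.4% of 4-fold changes, 71.6% of 2-fold and 32.8% of 1.5-fold ones, and made 1 false call. The simulated spread followed a trend with expression level, without scatter from gene to gene or effects shared by replicates. These shares hold for such counts only. Replicates differed beyond sampling noise (chi-square over its degrees of freedom 39.2 between the Ptip_KO libraries, 83.6 between the WT libraries).

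The members and lists were chosen with earlier results of these data known. Named genes are the members, Paxip1, called genes of each pathway list or else its 2 with the highest mean, and the 5 genes nearest to Nrg1. Further genes (Adam8, Adam10, Adam17, Rhbdf1, Dusp6, Egr1, Jun, Junb, Fos, Fosl2, Ier2, Fbxo22 and the cell markers) were named after their values were seen. Symbols and positions are from GENCODE M21 on GRCm38, where 92.19% of identifiers had the same version, and transcripts were compared with BLAST 2.17.0. The test without a filter by edgeR and the length of the longest transcript, and the marker sums without 2 markers, were added after the data were seen.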

Additional observations from a re-analysis of the deposited data

How the results depend on the processing

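Over all genes, 300 were higher and 477 lower. With the replicate number as a block these were 691 and 1030, and by DESeq2 780 and 1126; leaving out each library in turn gave 92 to 837 higher and 299 to 1015 lower. The lowest counts came without Ptip_KO replicates 1 (92 higher, 318 lower) and 2 (98 and 299), and the highest without WT replicates 1 (730 and 913) and 2 (837 and 1015). The labels give the replicate numbers no meaning across the 2 genotypes. The number of WT replicate 2 is that of its sample title, and its column of values carries another number. Same-numbered libraries deviated together with r = 0.332 over 12357 genes, and whether they shared a batch was not tested. The block changed no call of a member.

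Nrg1 was called under all 15 other settings, which supports nothing beyond these libraries, since the family was chosen with the contrast known. With 1 library left out, its group holds 1 library, which is assumed to vary like the 2 of the other genotype. The members called lower were 1, and 2 by DESeq2 and without WT replicate 1 (range 1 to 2 over left-out libraries), where Nrg4, chosen the same way, was also called, with log2 fold changes of −1.39 (DESeq2) and −1.27 (without WT replicate 1; range −1.27 to −0.64). On reads without a filter, edgeR gave log2 fold changes of −1.77 for Hbegf, 0.55 for Areg and −2.82 for Egfr, where log2(CPM + 1) gave −0.50, 0.14 and −0.23; the larger pseudocount relative to these levels makes those values smaller by construction, and none passed.

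In the pathway lists, 0 genes were higher and 4 lower. With the block 4 were higher and 14 lower, by DESeq2 3 and 16, with no filter 2 higher, with a robust variance prior 1 higher, and over left-out libraries 0 to 7 higher and 3 to 15 lower. Of 75 values of Adam19, Ccnd1, Cd9, Dusp5 and Paxip1 under other settings, 73 kept the call and 2, both of Ccnd1, lost it (rescaled to a common sum, without Ptip_KO replicate 2); none reversed. The cause of these shifts was not tested. Rescaling to a common sum moved the median gene by 0.05 on the log2 scale. Depth limits Egfr, at 2 reads per Ptip_KO library, and with 2 libraries a group Erbb3 and Nrg4 are not shown to be equal between genotypes by missing the threshold.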
